A study of Mus musculus with 3 samples.

Results

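This account covers 10 mouse genes of fibroblast growth factor (FGF) signalling and its ERK feedback loop: the receptor genes Fgfr1, Fgfr2, Fgfr3 and Fgfrl1, the Sprouty genes Spry1, Spry2 and Spry4, the ETS factor genes Etv4 and Etv5, and the phosphatase gene Dusp6. They were chosen by name, with earlier results of these data known. All 10 were found among the 22180 genes that had a probe set carrying 1 gene symbol. Gene expression was measured on 3 arrays, all of 1 group: neurospheres, floating colonies of neural precursor cells, grown from the ventricular-subventricular zone (V-SVZ) of wild-type (WT) CD1 mice labelled as postnatal day 8. The protocol gives day 7 or 8, plating at 10 cells per microlitre, and 7 days in medium with B27, 10 ng/ml FGF, 20 ng/ml EGF and 2 µg/ml heparin. Pups were cultured independently, but no source used here ties an array to a single pup, so the spread between arrays may be technical. Every culture received both growth factors, so the data hold no unstimulated level and no contrast between groups.

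FGFs bind receptor tyrosine kinases together with heparan sulfate chains on the cell surface, and the bound receptors pair and activate each other. The receptors pass the signal through the docking protein Frs2, Grb2 and Sos to RAS, the RAF and MEK kinases and ERK. ERK raises transcription of its own inhibitors and of the ETS factors Etv4 and Etv5, so the messenger RNAs of Sprouty, Etv and Dusp6 genes are widely used as readouts of the pathway, and receptors for EGF drive the same cascade. In cultured V-SVZ precursors FGF and EGF are the standard mitogens, and in the forebrain Fgfr1, Fgfr2 and Fgfr3 are expressed by radial glia and their descendants.

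The ETS family recognises DNA with a GGAA core. The promoter stretches of Dusp6 and Fgfrl1 are printed because, among the members' windows analysed here, they held a form of this core. That form is CGGAA, on either strand (read as TTCCG on the other). The windows are the 250 bases before a RefSeq start site in the GRCm38.p6 build. Windows of 7 members were analysed here, and none of Fgfr1, Spry4 or Etv4. They were 9 in all, and 2 held the motif. It stood in 25.2% of 32851 promoter windows of the same length over all genes. Capitals mark the motif, and each sequence runs 5′ to 3′ along the gene's strand.
Dusp6, chr10:99262981-99263230, plus strand: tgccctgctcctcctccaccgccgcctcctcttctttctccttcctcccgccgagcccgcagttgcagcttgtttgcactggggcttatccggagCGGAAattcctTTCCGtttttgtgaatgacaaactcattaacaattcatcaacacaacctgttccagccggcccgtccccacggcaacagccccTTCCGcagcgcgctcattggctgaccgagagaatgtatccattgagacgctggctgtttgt
Fgfrl1, chr5:108693979-108694228, plus strand: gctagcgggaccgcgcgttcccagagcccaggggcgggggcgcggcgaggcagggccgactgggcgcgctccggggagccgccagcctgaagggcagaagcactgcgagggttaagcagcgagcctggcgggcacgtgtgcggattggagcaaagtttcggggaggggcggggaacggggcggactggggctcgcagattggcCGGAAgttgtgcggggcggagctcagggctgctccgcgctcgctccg
The Dusp6 window held 3 matches, which begin 155, 144 and 61 bases before the start site, and 2.12% of all windows held 3 or more. The Fgfrl1 window held 1, which begins 47 bases before the start. A match is a run of letters and was not tested for binding, and the windows of Spry1, Spry2, Fgfr2, Fgfr3 and Etv5 held none.

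Because the series has no second group, each gene was compared with genes that neural precursor cells should not use. A reference level was drawn on each array at the 95th percentile of the signals of 1400 olfactory and vomeronasal receptor probe sets, genes of the sensory cells of the nose, and lay at 5.63, 5.53 and 5.71 on the log2 scale on arrays 1, 2 and 3. A gene was called above it when limma's one-sided moderated test gave an adjusted p under 0.05 over all genes. This held for 59.1% of all genes (13102 of 22180) and for all 10 members. With no model, counting genes above the level on each array, it was 59.6% of all genes and again 10 members. Their margins over the level had a median of 2.97 log2 units, against 0.76 over all genes and 2.50 over the genes called. The p-values rest on a spread pooled over genes of like signal and are extremely small here, so margins are given in their place. Signals are not ranked between genes, since probes differ in binding strength.

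Markers of the labelled cells were present. All 7 measured markers of neural stem cells and radial glia were above the level, among them Sox2 (11.39 ± 0.073, mean log2 ± SD, n = 3) and Fabp7 (13.73 on each array), as were 5 of 5 markers of oligodendrocyte precursors, 4 of 4 of astrocytes and 5 of 5 of neuroblasts. Fewer markers were above for mature neurons (2 of 5), microglia (2 of 5), ependymal cells (1 of 5) and endothelium (1 of 5). Those not above included Ptprc (4.27) of the microglia list and Pecam1 (5.30) of the endothelial list. Others not above lay close to the level, with margins of 0.03 for Rsph1, -0.04 for Nefl, -0.06 for Dnah5 and -0.08 for Csf1r. The markers above in these lists were the neuronal genes Snap25 (8.57) and Syt1 (6.34), the microglial genes Cx3cr1 (6.66) and C1qa (6.12), the ciliogenesis gene Foxj1 (7.86) and the endothelial gene Kdr (6.84). The share of the members' signal that each cell type gave was not tested. In RNA from whole cultures, fewer cells of a type and less RNA per cell cannot be told apart.

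All 3 signalling receptor genes were detected far over the level. Fgfr1 encodes a receptor tyrosine kinase whose loss impairs forebrain precursors, and its signal was 9.50 on each of the 3 arrays. No array differed from the others, and the margin over the reference level was 3.87 ± 0.091 (SD, n = 3), an SD that comes from the reference levels alone. Fgfr2, the closely related kinase that binds several of the same ligands, had 10.75, 10.74 and 10.74. Its arrays lay within 0.0095 log2 units, and the margin was 5.11 ± 0.091. Fgfr3, a kinase receptor gene used as a marker of radial glia and astrocytes, had 8.92, 8.96 and 8.92, with array 2 above the others and a margin of 3.31 ± 0.11. Of the 1400 receptor probe sets used as reference, 1 reached the signal of Fgfr1, Fgfr2 or Fgfr3 on each array.

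Fgfrl1 encodes a receptor that binds FGF and heparin but has no tyrosine kinase domain inside the cell. Its signal was 10.57, 10.57 and 10.54, lowest on array 3, with a margin of 4.94 ± 0.11, and again 1 reference probe set was as high. The remaining kinase of the family, Fgfr4, which is best known from liver and muscle, was not above the level. It had 5.60 on each array, which put it 0.03 below the level on array 1, 0.07 above it on array 2 and 0.12 below it on array 3. With the 90th percentile of the nasal receptors as reference Fgfr4 was called above, so its place depends on where the level is drawn.

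The Sprouty genes encode inhibitors that act between the receptor and RAF, and the 3 members were all detected. Spry1 had 7.60 on each array and a margin of 1.97 ± 0.091. Spry2, the most studied of the family in FGF signalling, had 9.51 on each array and a margin of 3.88 ± 0.091. Spry4 had 7.81 on each array and a margin of 2.19 ± 0.091. Neither Spry1, Spry2 nor Spry4 showed any difference between arrays in the deposited values. At most 2 of the 1400 reference probe sets reached the signal of Spry1 or Spry4, on array 3, and 1 reached that of Spry2.

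The ETS factors Etv4 and Etv5 belong to the PEA3 group, whose transcripts follow FGF and ERK activity in many embryonic tissues. Etv4 had 6.88 on each array and a margin of 1.25 ± 0.091. Between 3 and 7 of the 1400 reference probe sets reached its signal, depending on the array. Its call did not hold when defensins, bitter taste receptors and keratin-associated proteins set the level (margin 0.44, limma adjusted p = 0.103). Etv5 had 8.26, 8.26 and 8.23, slightly lower on array 3, and a margin of 2.63 ± 0.11. The third gene of the PEA3 group, Etv1, was above the level as well (10.82 ± 0.025).

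Dusp6 encodes the cytoplasmic phosphatase that removes phosphate from ERK itself, and of the members it had the widest range over the arrays. Its signal was 7.97, 8.07 and 7.82, highest on array 2 and lowest on array 3, a range of 0.25 log2 units. The margin over the reference level was 2.33 ± 0.22. That SD includes the movement of the reference levels, and the SD of the signal alone was 0.13. A range at least as wide was found in 16.8% of all genes, while the other 9 members had ranges of 0 to 0.034 and the median over all genes was 0.036. The array medians were 5.87, 5.85 and 5.86, too alike for centring on them to change the order (7.96, 8.08 and 7.82). The order of the Dusp6 arrays was kept when the arrays were quantile normalised again (7.96, 8.04 and 7.87).

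**Figure D1:**
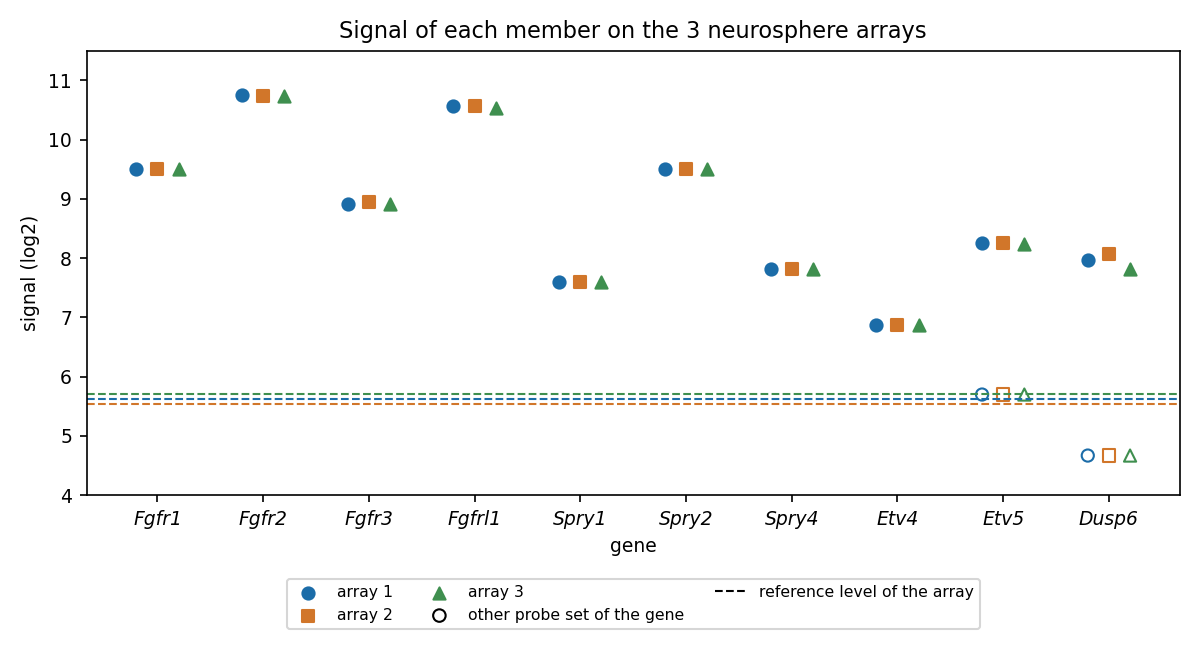
Signal of the 10 members on the 3 arrays (y axis, log2; x axis, gene), with filled symbols for the probe set used, open symbols for the other probe set of Etv5 and Dusp6, and dashed lines for the reference level of each array (5.63, 5.53 and 5.71). All filled symbols lie above the 3 lines, and the open symbols lie at 5.70 for Etv5 and 4.67 for Dusp6.

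Etv5 and Dusp6 each had 2 probe sets, and these did not give like signals. For Dusp6 the second probe set had 4.67 on each array, 3.29 log2 units under the first and below the reference level on every array, where 295 to 340 of the 1400 nasal receptor probe sets were at least as high. For Etv5 it had 5.70 on each array, 2.55 under the first, with a margin of 0.07 and no call (limma adjusted p = 0.281, fitted over single probe sets). The detection of Dusp6 and Etv5 therefore rests on the probe set with the higher mean, and which exons each one covers was not analysed here. Such gaps were common on this array: among 1082 genes with several probe sets the median gap was 2.03, with 29.5% at least as wide as that of Dusp6 and 41.4% at least as wide as that of Etv5. The probe sets of 469 of these genes (43.3%) fell on either side of the call. The other 8 members had a single probe set and no such check.

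**Figure D2:**
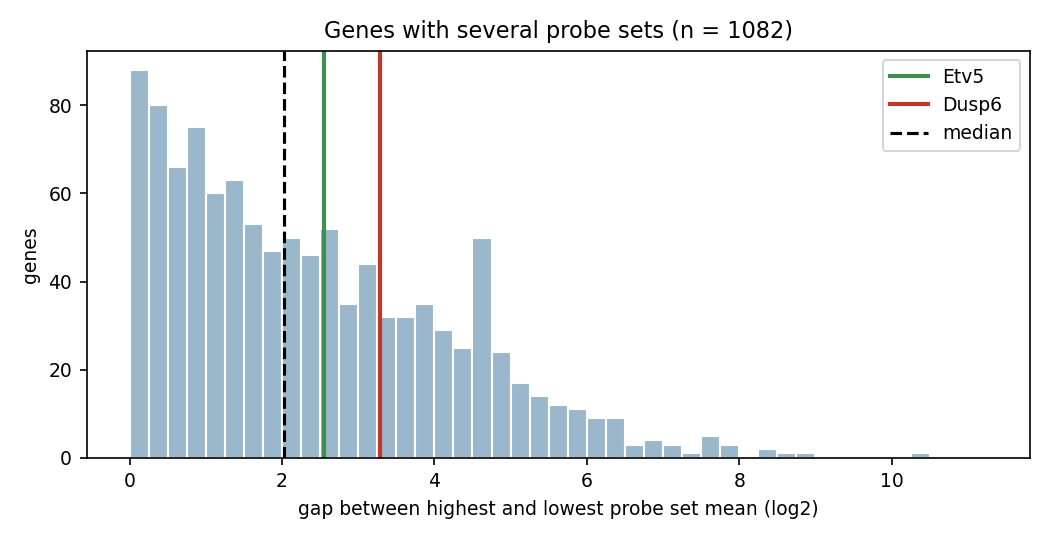
Gap between the highest and the lowest probe set mean (x axis, log2) for the 1082 genes with several probe sets, with the number of genes per bin on the y axis. The median gap was 2.03 (dashed line), and Etv5 (2.55) and Dusp6 (3.29) lie to its right within the bulk of the distribution.

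Exact repeats of a value limit what the spread of the members can show. Fgfr1, Spry1, Spry2, Spry4 and Etv4 had the same deposited value on all 3 arrays, 5 of 10 members beside 39.4% of all genes. Fgfr2, Fgfr3, Fgfrl1 and Etv5 had the same value on 2 arrays, and only Dusp6 had 3 different values, which 25% of all genes had. Values also recurred between unrelated probe sets of 1 array: 14, 17 and 11 other probe sets held the value of Etv4 on arrays 1, 2 and 3, and 97, 84 and 82 held that of the second Etv5 probe set. Between 43.2% and 50.7% of the probe sets of an array shared their value with another. An SD of 0 is therefore given as it stands in the deposited values, and the reason for the repeats was not tested.

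Rescaling moves equal values apart by construction, and it shows how far the order of the arrays depends on the scale. When the arrays were quantile normalised again, Etv4 had 6.87, 6.84 and 6.92, Spry1 had 7.59, 7.56 and 7.65, and Fgfr1 had 9.49, 9.48 and 9.52. The ranges of the members then ran from 0.0043 for Fgfr2 to 0.17 for Dusp6. Fgfr3, highest on array 2 in the deposited values, then had 8.92, 8.94 and 8.94, and Etv5, lowest on array 3 before, was highest there (8.27).

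Of the genes that act with the members, most secreted ligands were not called. Of 15 paracrine FGF ligands 6 were above the reference level, beside 59.1% of all genes, and their median margin was -0.29. Fgf1, a ligand that binds all FGF receptors, had 7.37 on each array and a margin of 1.74. Fgf2, the ligand most used to grow neurospheres, had 6.07 on each array and a margin of 0.45. Fgf4 (margin 0.64), Fgf17 (0.82), Fgf18 (0.18, limma adjusted p = 0.0142) and Fgf22 (0.95) were also above. Apart from Fgf1, these calls ended when the 99th percentile or a minimum margin of 1 log2 unit was required. They also ended with the other reference genes (defensins, taste receptors and keratin-associated proteins). The call of Fgf18 also ended without replicate 1 and without replicate 2. Fgf3, Fgf5, Fgf6, Fgf7, Fgf8, Fgf9, Fgf10, Fgf16 and Fgf20 were not above, with margins from -0.93 for Fgf16 to -0.29 for Fgf7. The endocrine ligand genes Fgf15 (5.58), Fgf21 (5.03) and Fgf23 (4.66) were not above either, though Fgf15 was 0.09 above the level on array 3 and was called at the 90th percentile.

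The intracellular FGF homologous factors, which bind sodium channels and do not act as receptor ligands, were all 4 above, beside 59.1% of all genes. Fgf11 (9.14) and Fgf12 (8.75) had margins of 3.51 and 3.13, and Fgf13 (7.43) and Fgf14 (6.71) had 1.80 and 1.09. At the 99th percentile, with the other reference genes or with a minimum margin of 1 log2 unit, Fgf14 was no longer called.

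Genes of co-receptors and heparan sulfate, the chains that FGFs need to bind their receptors, were above in 22 of 27 measured cases. The share over all genes was 59.1%, and the list's median margin was 2.46. In the order listed, the first above were the FGFR-binding transmembrane genes Flrt1 (6.65), Flrt2 (7.70) and Flrt3 (6.55) and the syndecan genes Sdc1 (6.63), Sdc2 (9.83) and Sdc3 (10.87). The Klotho genes Kl (4.60 ± 0.33) and Klb (5.07), co-receptors for endocrine FGFs, were not above, nor were the glypican gene Gpc5 (5.46, called at the 90th percentile), the sulfotransferase gene Hs6st2 (5.09) and the FGF-binding protein gene Fgfbp1 (3.13). The enzymes that remove 6-O-sulfate groups, Sulf1 (8.43) and Sulf2 (11.07), named after their values were seen, were above. The calls of Flrt1, Flrt3, Sdc1, Gpc3 and Hs6st3 ended at the 99th percentile and with the other reference genes. They also ended with a minimum margin of 1 log2 unit. Gpc3 and Hs6st3 were named for that after their values were seen. The call of Hs6st3 also ended without replicate 1, and that of Sdc1 with its lowest probe set (margin -0.59).

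Adaptors and kinases between the receptor and ERK were above the level in every case measured here, beside 59.1% of all genes. Of 12 listed adaptors and proximal effectors 11 were measured and all 11 were called, with a median margin of 4.17, including the docking gene Frs3 (6.72), Grb2 (8.47), Gab1 (10.82), Shc1 (7.72) and the RAS exchange factor genes Sos1 (9.24) and Sos2 (9.80). Of 17 listed genes of the kinase cascade 10 were measured and all 10 were called, with a median margin of 3.56, including Nras (10.06), the scaffold genes Shoc2 (10.67), Ksr1 (7.19) and Ksr2 (6.39), and the RAF genes Araf (9.82) and Braf (9.84). The docking gene Frs2 and the other 7 listed cascade genes were not analysed here. Frs3 and Ksr2 were no longer called at the 99th percentile, with the other reference genes or with a minimum margin of 1 log2 unit.

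Genes listed as other ERK feedback inhibitors were above in 15 of 15 cases, beside 59.1% of all genes. Their median margin was 2.39, beside 2.97 for the members and 2.50 over the genes called. In the order listed these began with Spry3 (8.44), a Sprouty gene, the Sprouty-related genes Spred1 (10.62), Spred2 (8.67) and Spred3 (8.02), Il17rd (7.90 ± 0.13), which encodes the FGF antagonist Sef, and Errfi1 (7.94), which encodes an inhibitor of the EGF receptor. The nuclear phosphatase genes Dusp2, Dusp4 and Dusp5 lost their calls at the 99th percentile and with the other reference genes. Dusp2 and Dusp4 also lost them with a minimum margin of 1 log2 unit. These genes were named for their lost calls after their values were seen. The list also holds Rasa1 (9.88) and Nf1 (10.74), general inhibitors of RAS named here afterwards, so it is wider than feedback genes alone. Other ERK-responsive transcription factors and targets were above in 14 of 14 cases, with a median margin of 2.60, beginning with Etv1, the repressor gene Cic (8.85), which ERK signalling relieves, Ets1 (7.37), Ets2 (7.98, 8.11 and 7.90), Elk1 (9.24) and Elk3 (8.68). These lists were compiled with earlier results of these data known and hold genes that many cell types express.

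**Figure D3:**
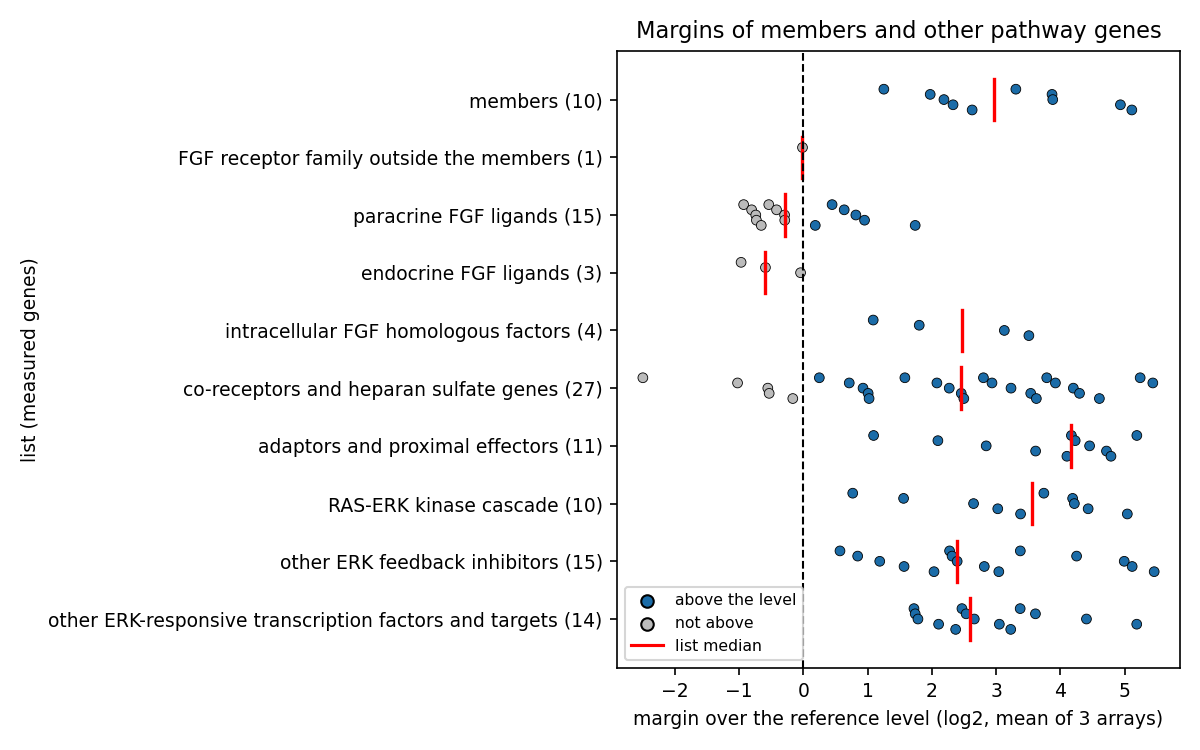
Margin over the reference level (x axis, log2, mean of 3 arrays) of the members and of other pathway genes by list (y axis, with the number measured), blue where called above and grey where not, with a red line at each median. All 10 members lie to the right of 0, and the grey points are in the ligand, co-receptor and Fgfr4 rows; places along the axis do not rank genes, since probes differ in binding strength.

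Array 2 gave the highest Dusp6 signal, and the other lists were counted for the same order. Among the 14 other ERK-responsive factors and targets, array 2 alone was highest for 10 (71.4%), beside 24% of all genes, and array 2 was highest with array 3 lowest for 7. Among all 5325 genes with a mean signal of 7 to 9, array 2 alone was highest for 46.6% and the full order of Dusp6 was found in 27.3%, so signals of this strength leaned the same way on these arrays. Among the 15 other feedback inhibitors it was 6 (40%). Among those picked after their values were seen, Il17rd had 7.79, 8.05 and 7.86 and Dusp1 had 7.63, 7.81 and 7.54, highest on array 2 in each case, whereas Dusp2 had 6.58, 6.25 and 6.58 and was lowest there. Of the 10 members, Fgfr3 and Dusp6 (20%) were highest on array 2 alone. The share was 24% of all genes and 34.3% of the genes above the reference level. The part of scaling and signal strength in these differences was not tested.

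**Figure D4:**
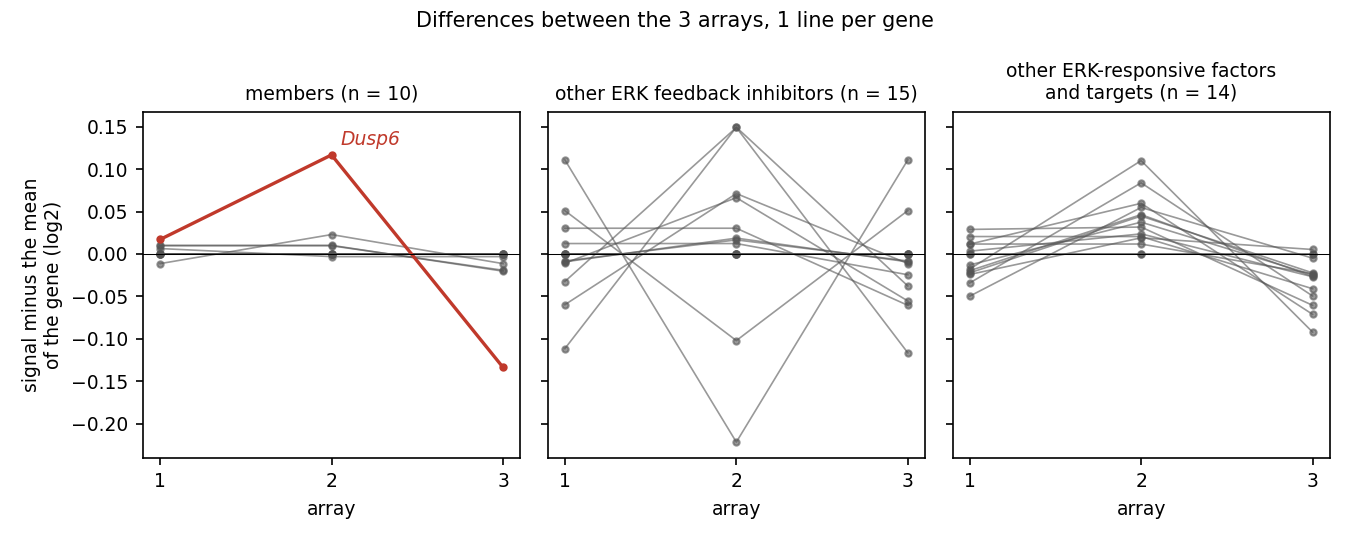
Signal on each array minus the gene's mean over the 3 arrays (y axis, log2; x axis, array), 1 line joining the values of each gene, for the members, the other ERK feedback inhibitors and the other ERK-responsive factors and targets. Dusp6 (red) spans 0.25 log2 units while the other members stay within 0.034, and 10 of the 14 factors and targets peak on array 2.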

How the data were processed

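The authors deposited log2 signals for 41345 probe sets on 3 arrays, and RMA is the tool that the submitters' processing notes name. RMA corrects background, normalises between arrays and summarises probes. Its version and options are not stated in those notes, and probe-level files were not used here. By the array's annotation table, 23521 probe sets carried 1 gene symbol, 1814 several and 16010 none. Genes were named from those with 1 symbol, and the probe set with the highest mean was taken. For each gene, limma 3.58.1 in R 4.3.3 fitted an intercept to the signal minus the array's reference level (eBayes with an intensity trend, Benjamini-Hochberg adjustment). The fitted prior had infinite degrees of freedom, which gives genes with similar signals 1 common spread. The fit was tested on simulated data with independent noise in each gene and a fixed reference level. That setting leaves out the movement of the reference level between arrays, which all genes share. The number of arrays limits the precision. In each pathway list, the text names the first 6 genes above and every gene not above. Gpc3, Hs6st3, Sulf1, Sulf2, Rasa1, Nf1, Dusp1, Dusp2, Dusp4 and Dusp5 were named beyond that rule, after their values were seen. Members and lists were chosen with earlier results of these data known. Promoter windows are from RefSeq. Figures were drawn with matplotlib 3.10.9.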

Additional observations from a re-analysis of the deposited data

How the results depend on the processing

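All 10 members kept a positive margin under each of the 13 planned settings, except Dusp6 with the probe set of the lowest mean, where its margin was -0.96. Of 130 margins recomputed, 127 stayed on the same side of the call; Etv5 lost its call with the lowest probe set (margin 0.07, limma adjusted p = 0.287) and Etv4 with the other reference genes (0.44). The members' median margin of 2.97 moved to 3.33 with the 90th percentile, 2.19 with the 99th, 2.16 with the other reference genes, and 2.75 with the median or the lowest of a gene's probe sets. It ranged from 2.91 to 3.02 when 1 replicate was left out. The pathway lists had 82 calls, and 66 to 85 under the alternatives; all genes had 13102 calls, and 9658 to 14790. Members called numbered 8 to 10. A rule added after the data were seen, above the level on each array with no model, called 10 members. No paired analysis was possible because the series has 1 group. The choice of probe set moved Dusp6 and Etv5, and the reference genes moved Etv4.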
